A study of Mus musculus with 2 samples.

Results

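Glycolysis, the cytosolic route from glucose to pyruvate and lactate, was followed at 10 enzyme genes in mouse cells that had been reprogrammed towards pluripotency for 16 days. The genes were taken by name from the deposited expression table: Hk1 and Hk2, Pfkl and Pfkp, Aldoa and Aldoc, Tpi1, Pgam1, Pkm and Ldha. All 10 were among the 17408 genes of the table, and all 10 passed the filter on low values that left 7131 genes. The cells were unsorted mouse embryonic fibroblasts that carried STEMCCA, a cassette of Pou5f1, Sox2, Klf4 and Myc under doxycycline control. They were grown in mouse embryonic stem cell medium with LIF, serum and ascorbic acid, which all cells shared, and neither strain nor embryo age is given in the labels of the samples. The 2 droplet libraries form 1 group and are called replicate 1 (3109 cells, 54145377 unique molecular identifiers, UMIs) and replicate 2 (3914 cells, 64654306 UMIs). The study drew its day-16 droplet data from more than 1 transgenic STEMCCA mouse system, but the labels give neither the system nor the culture of a library. The libraries may therefore not be repeats of 1 system, and every SD and library term covers whatever differs between them, which may be technical. Where a fit has a library term, its p-values rest on how the difference between cell classes varied between the libraries, which may be technical too.

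In glycolysis, hexokinases trap glucose in the cell, phosphofructokinases commit it to the pathway, and aldolases split the sugar into triose phosphates. Triose phosphate isomerase, phosphoglycerate mutase and pyruvate kinase then lead to pyruvate, which lactate dehydrogenase turns into lactate while it renews NAD+. Somatic cells rely largely on mitochondrial respiration, whereas pluripotent stem cells are known for a high rate of glycolysis. Hypoxia-inducible factors, which bind the core letters ACGTG or GCGTG, are classical activators of these genes.

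The start regions of 4 of the genes are shown because the comparisons below turn on Hk1, Hk2 and Pfkp, and because Ldha is a textbook target of hypoxia-inducible factors. The Ldha window lies within the GENCODE gene, upstream of the start of a shorter transcript and outside annotated exons. Each is the 250 bases before a RefSeq start site of assembly GRCm38.p6, 5′ to 3′, with every ACGTG or GCGTG, on either strand, in capitals. Hk1 was read on the minus strand at chr10:62379909-62380158, Hk2 on the minus strand at chr6:82774455-82774704, Pfkp on the minus strand at chr13:6648772-6649021 and Ldha on the plus strand at chr7:46845554-46845803.
Hk1: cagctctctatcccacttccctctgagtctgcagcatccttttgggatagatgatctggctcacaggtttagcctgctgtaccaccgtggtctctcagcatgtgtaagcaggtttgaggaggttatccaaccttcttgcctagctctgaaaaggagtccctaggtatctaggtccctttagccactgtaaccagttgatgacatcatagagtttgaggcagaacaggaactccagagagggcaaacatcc
Hk2: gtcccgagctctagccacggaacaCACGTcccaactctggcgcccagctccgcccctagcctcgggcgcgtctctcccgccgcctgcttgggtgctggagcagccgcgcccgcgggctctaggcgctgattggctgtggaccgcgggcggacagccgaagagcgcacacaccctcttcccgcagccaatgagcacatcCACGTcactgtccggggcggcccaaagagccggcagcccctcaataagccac
Pfkp: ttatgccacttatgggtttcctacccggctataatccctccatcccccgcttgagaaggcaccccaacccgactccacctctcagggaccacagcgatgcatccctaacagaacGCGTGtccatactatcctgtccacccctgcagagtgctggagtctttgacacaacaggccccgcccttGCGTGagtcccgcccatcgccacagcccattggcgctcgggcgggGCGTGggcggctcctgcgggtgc
Ldha: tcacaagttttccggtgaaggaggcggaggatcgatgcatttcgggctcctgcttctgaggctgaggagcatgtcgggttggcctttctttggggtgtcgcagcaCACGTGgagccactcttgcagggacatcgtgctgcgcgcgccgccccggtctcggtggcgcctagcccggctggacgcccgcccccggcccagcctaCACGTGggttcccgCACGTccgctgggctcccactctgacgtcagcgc
The Hk1 window held 0 matches, the Hk2 window 2, the Pfkp window 3 and the Ldha window 5, where both strands of a CACGTG palindrome count. RefSeq lists 16 start sites for the 10 genes, of which 12 windows had a match, so that 9 of the 10 genes had at least 1, and Tpi1 had none. Hk1 has another start site, whose window had 3 matches. Of all 32536 distinct windows of this length, 38.8% had a match. CACGTG, the E-box that MYC binds and that contains ACGTG, was found in 6.04% of all windows and, among these genes, at Ldha. AAGGTCA, the core of the ESRRB site, was in 4.09% of all windows and in 0 of the 16, and TGAGTCA, the AP-1 site, was in 4.45% of all windows and in 1 of the 16, at Aldoa. GGGCGG, the GC box, was in 33.0% of all windows and in 8 of the 16, at 7 of the 10 genes. Some of the 16 windows overlap, and a match of letters is no evidence of binding.

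The genes lie on GRCm38 (GENCODE M21), the assembly of the deposited table. Hk1 and Pfkl are on chromosome 10, Hk2 and Tpi1 on chromosome 6, Aldoa and Ldha on chromosome 7, Pkm on chromosome 9, Aldoc on chromosome 11, Pfkp on chromosome 13 and Pgam1 on chromosome 19. The assay counts molecules at the 3′ end, so Pkm UMIs do not tell the M1 and M2 splice forms apart. The last 500 bases of each gene's longest coding transcript were aligned to all annotated transcripts. By the longest alignment to each other gene, none shared 98 bases at 97% identity. The closest was an Aldoa pseudogene at 92.4%. Among genes of the deposited table, Aldoart1 matched Aldoa at 91.8%, with 25 UMIs against 99203 for Aldoa. Spsb2 matched Tpi1 at 91.0% over 145 bases, with 1740 UMIs against 53970 for Tpi1. Hk1, Hk2, Pfkp, Aldoa and Tpi1 overlap a gene on the opposite strand, and Pkm an unclassified one on its own, whose reads could not be set apart here because the strand setting of the counting is not given.

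Clustering without the genes of this pathway and its neighbours gave 15 clusters, of which 11 had at least 30 cells in both libraries. Cluster 6, with 146 cells in replicate 1 and 391 in replicate 2, was called pluripotent-like, since 11 of 12 pluripotency markers were raised at least 2-fold there. Genes held out of the clustering went with this name: Tet1, a DNA demethylase, stood at 1.86 and 1.79 UMIs per 10000 in it and at 0.0607 and 0.0715 in all other cells. Cluster 8 was called fibroblast-like (257 and 189 cells, 10 of 12 markers) and cluster 5 smooth muscle-like (345 and 255 cells, 7 of 7 markers, although 10 of 12 fibroblast markers were raised there too). Clusters 2, 9 and 10 were led by genes of mitosis, of S phase and of both, and clusters 0, 1, 3, 4 and 7 matched no class. Of the 12 barcodes that both libraries held, each was kept as 2 cells. Pluripotent-like cells were deeper, with medians of 28768 and 26097 UMIs against 15214 and 13651 in the other cells, and 8 of 16 S-phase and 11 of 16 mitosis genes were at least 2-fold higher in them. Some other marker lists were higher in pluripotent-like cells as well: 8 neural markers summed to 7.65 and 5.55 per 10000 against 1.42 and 1.10 in the other cells, and 11 epithelial markers to 2.28 and 3.37 against 0.775 and 0.598. Sums of 4 skeletal muscle markers were 2.43 and 1.69 against 0.0596 and 0.0437, and of 6 trophoblast markers 0.267 and 0.310 against 0.0177 and 0.0255. The part of depth, cell cycle and these markers in the levels below was not tested beyond the values given beside them.

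In pluripotent-like cells the 10 genes together held 0.509% (replicate 1) and 0.588% (replicate 2) of all UMIs, and the other cells gave 0.334% and 0.388%. The question was which enzymes differ between cells that reached a pluripotent-like state and cells that did not. Of the 10 genes, 6 were higher in pluripotent-like cells (Hk2, Pfkl, Pfkp, Aldoa, Pgam1 and Pkm), 3 were lower (Hk1, Aldoc and Tpi1), and Ldha did not pass the test. The test was limma on log2(mean UMIs per 10000 + 0.1) of 4 profiles, 1 per class and library, with Benjamini-Hochberg adjustment over 7131 genes and a threshold of 0.05. At this threshold 31.5% of all genes were higher and 46.2% lower, so being called sets no gene apart, and the states were made from other genes of the same cells. The median log2 fold of the 10 genes was 0.61 and that of all genes tested -0.16.

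**Figure D1:**
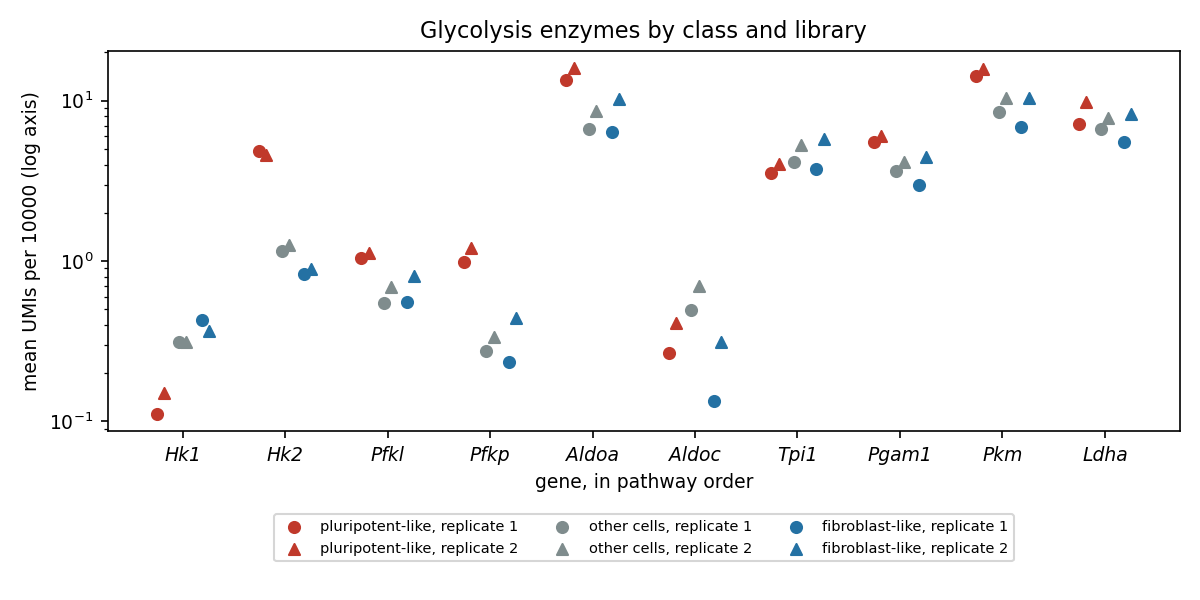
Mean level (UMIs per 10000, log axis) of each enzyme gene in pluripotent-like cells, all other cells and fibroblast-like cells; each point is 1 library, circles replicate 1 and triangles replicate 2. Hk2 stood at 4.83 and 4.57 in pluripotent-like cells and between 0.836 and 1.26 in the other classes, and Hk1 was lowest in pluripotent-like cells in both libraries.

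Hexokinases went opposite ways. Hk2, the inducible hexokinase, had a level of 4.83 and 4.57 UMIs per 10000 in pluripotent-like cells of replicates 1 and 2 and of 1.16 and 1.26 in the other cells. Hk1, the constitutive form, had 0.112 and 0.151 in pluripotent-like cells and 0.315 and 0.311 in the others. In neither gene did the groups overlap. The share of all genes whose groups did not overlap is not given, so non-overlap here and below sets no gene apart. The log2 fold was 1.87 (SE 0.09, limma adjusted p = 2.4e-07) for Hk2 and -0.84 (SE 0.10, limma adjusted p = 4.6e-05) for Hk1. Of all genes tested, 1.36% had a log2 fold as high as that of Hk2 or higher.

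Both phosphofructokinase genes followed here, Pfkl and Pfkp, were higher in pluripotent-like cells. Phosphofructokinases set the pace of the pathway. Pfkp, the platelet form, had a level of 0.991 and 1.21 UMIs per 10000 in pluripotent-like cells and 0.276 and 0.338 in the others, a log2 fold of 1.56 (SE 0.09, limma adjusted p = 4.9e-07). Pfkl, the liver form, had 1.05 and 1.12 against 0.548 and 0.692, a log2 fold of 0.73 (SE 0.09, limma adjusted p = 8.9e-05). The groups did not overlap for either form, and Pfkp, the lower of the pair in the other cells, was level with Pfkl in pluripotent-like cells. A log2 fold as high as that of Pfkp or higher was found in 2.31% of all genes.

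The aldolases divided as well. Aldoa, the form of muscle and most tissues, had a level of 13.5 and 16.0 UMIs per 10000 in pluripotent-like cells and 6.70 and 8.62 in the others. Aldoc, the form best known from brain, had 0.269 and 0.413 against 0.498 and 0.698. No library of one class reached into the range of the other for either gene. The log2 fold was 0.94 (SE 0.09, limma adjusted p = 1.2e-05) for Aldoa and -0.67 (SE 0.09, limma adjusted p = 0.00011) for Aldoc. The direction of Aldoc depended on how classes were drawn: with each single cell classed by its own markers it was 0.34 (limma adjusted p = 0.14).

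Of the later steps, Pgam1, phosphoglycerate mutase, had a level of 5.50 and 6.05 UMIs per 10000 in pluripotent-like cells and 3.66 and 4.16 in the others, and Pkm, pyruvate kinase, 14.2 and 15.8 against 8.55 and 10.4. Neither overlapped between the classes, and the log2 folds were 0.55 (SE 0.09, limma adjusted p = 0.00036) for Pgam1 and 0.66 (SE 0.09, limma adjusted p = 0.00013) for Pkm. Tpi1, triose phosphate isomerase, had 3.55 and 4.04 against 4.15 and 5.33, the groups just not overlapping, with a log2 fold of -0.31 (SE 0.09, limma adjusted p = 0.014). Relative to the median of all genes its fold was -0.15 and did not pass (limma adjusted p = 0.16). Ldha, which makes lactate, had 7.14 and 9.77 against 6.62 and 7.81, the groups overlapping, with a log2 fold of 0.21 (SE 0.10, limma adjusted p = 0.067). Relative to the median of all genes it was 0.37 and passed (limma adjusted p = 0.0024).

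Among cells of 15000 to 30000 UMIs, where median depths were 24810 and 22807 in pluripotent-like and 19435 and 19168 in other cells, 6 genes were higher (28.1% of all genes) and 2 lower (43.2%), Tpi1 no longer passing. In a comparison added after seeing the data, other cells without the 3 clusters led by cell-cycle genes, 7 were higher, now with Ldha (33.0% of all genes), and 3 lower (46.3%).

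The share of cells with at least 1 UMI was compared after each cell had been thinned to 3000 UMIs, which left out 0 cells. Hk2 was then seen in 72.6% (replicate 1) and 71.6% (replicate 2) of the pluripotent-like class, against 27.4% and 29.7% of the others. For Hk1 the shares were 2.05% and 3.84% in the pluripotent-like class, against 8.84% and 9.23%. Pfkp was seen in 30.8% and 26.1% against 7.29% and 8.74%. Without thinning, Hk2 was found in 99.3% and 99.0% of pluripotent-like and 69.4% and 70.4% of other cells, Hk1 in 24.0% and 31.2% against 37.6% and 36.1%, and Pfkp in 84.9% and 88.7% against 32.6% and 33.9%. Free RNA gives UMIs in cells that do not express a gene. No cell type here lacks glycolysis, so no background share was at hand.

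Next, pluripotent-like cells were set against fibroblast-like cells. These are day-16 cells of cluster 8, since the starting fibroblasts were not among the samples. Cluster 8 was led by Spp1, Mmp3 and Mmp13, and 8 senescence markers summed to 17.2 and 12.9 per 10000 in it, against 7.97 and 6.68 in the other cells. Mmp3 is itself 1 of these markers, and its part in the sum was not set apart. In this comparison 8 of the 10 genes were higher in pluripotent-like cells (background 32.1% of all genes) and 1, Hk1, was lower (background 45.4%). With no filter on low values, 2 were higher (13.5% of all genes) and 0 lower (17.4%), and without the library term 6 were higher (30.3%) and 1 lower (43.5%). The median log2 fold of the 10 genes was 0.64 and that of all genes -0.18. Fibroblast-like cells differed between the libraries, with a summed level of the 12 fibroblast markers of 114.5 and 82.4 per 10000 and of the 10 enzymes of 27.7 and 41.8. Both comparisons share the pluripotent-like cells, and the fibroblast-like cells are part of the other cells.

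Hk2 stood at 0.836 and 0.896 UMIs per 10000 in fibroblast-like cells, so its log2 fold was 2.31 (SE 0.13, limma adjusted p = 4.1e-09), and Hk1 stood at 0.426 and 0.366, with a log2 fold of -1.10 (SE 0.14, limma adjusted p = 9.8e-06). Pfkp had 0.234 and 0.440 in fibroblast-like cells and was 2.82-fold higher in pluripotent-like cells on the scale with the 0.1 added (limma adjusted p = 5.5e-07), and Pfkl had 0.560 and 0.808, with a log2 fold of 0.61 (SE 0.14, limma adjusted p = 0.0011). Aldoa had 6.42 and 10.2 in fibroblast-like cells, Pgam1 2.96 and 4.43, and Pkm 6.84 and 10.4, for log2 folds of 0.85, 0.66 and 0.82. For these 7 genes the groups did not overlap, a count without the share of all genes beside it, so it sets none of them apart. Aldoc had 0.133 and 0.314 in fibroblast-like cells and overlapped with pluripotent-like cells, although it passed with a log2 fold of 0.49 (SE 0.14, limma adjusted p = 0.0053). This value depended on the settings: with clusters from 4000 variable genes it was -0.18 (limma adjusted p = 0.26), and it did not pass without the library term (limma adjusted p = 0.084). Ldha (5.55 and 8.23) and Tpi1 (3.76 and 5.76) also overlapped, and only Ldha passed, with 0.30 (SE 0.13, limma adjusted p = 0.045) against -0.29 (SE 0.14, limma adjusted p = 0.071) for Tpi1.

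**Figure D2:**
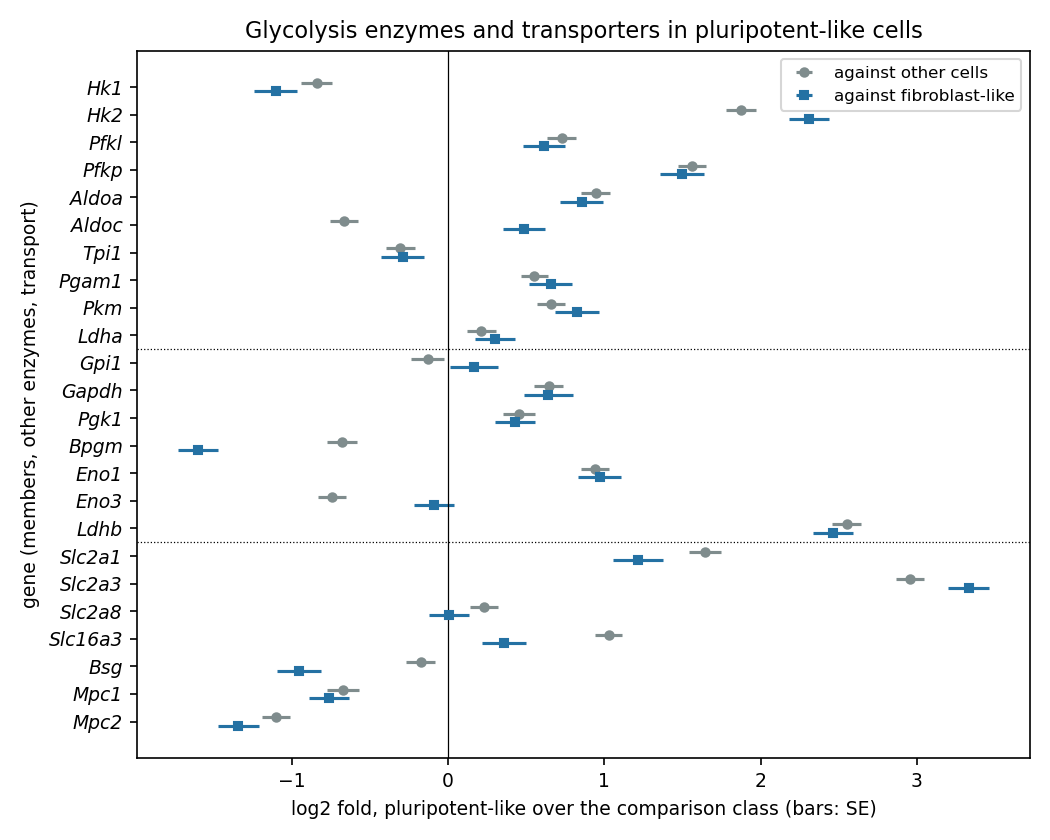
Log2 fold (pluripotent-like over the comparison class, with SE from limma) of the 10 enzyme genes, of other glycolytic enzymes and of transporters with a mean of at least 0.1 per 10000; circles are against all other cells and squares against fibroblast-like cells. Hk2 and Pfkp lie furthest right of the 10, at 1.87 and 1.56 against other cells, beside Ldhb at 2.55 and Slc2a3 at 2.96, while Hk1 lies left of 0 in both comparisons.

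Paralogs of 1 step were then compared within a class, as shares of their summed UMIs. Hk2 made up 97.9% of the UMIs of Hk1 and Hk2 in pluripotent-like cells of replicate 1 (exact Clopper-Pearson 95% interval 97.2 to 98.4). In replicate 2 it made up 96.9% (96.4 to 97.3). In the other cells it made up 79.7% and 80.3%, and the differences were 18.2 and 16.6 percentage points. By the mean of the libraries the share was lowest in smooth muscle-like cells, at 65.8% and 61.9%, and in replicate 1 fibroblast-like cells were level with them (65.7%, and 70.3% in replicate 2). Intervals cover counting error only, and an exact sign-flip test over 2 libraries cannot go below 0.5.

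Pfkp made up 49.4% and 51.1% of the UMIs of Pfkl and Pfkp in pluripotent-like cells and 35.6% and 34.7% in the others, differences of 13.8 and 16.4 percentage points. By the mean of the libraries cluster 4, led by Perp, Krt19 and Msln, came next, at 44.4% and 47.0%, while in replicate 1 the mitosis-led cluster 2 was above it, at 45.7% (40.4% in replicate 2). Of the UMIs of Aldoa and Aldoc, Aldoc made up 1.93% and 2.35% in pluripotent-like cells and 6.03% and 6.91% in the others. It differed by -4.10 and -4.56 percentage points. Its share was highest in cluster 1, led by Pcp4, Thbd and Ntrk2, at 14.5% ± 2.4 (SD, n = 2), and in cluster 0, led by Acsbg1 and Tac2, at 11.8% ± 3.1 (SD, n = 2). In fibroblast-like cells it was 1.83% and 3.31%, which lay below and above both values of pluripotent-like cells.

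Ldhb, the heart form of lactate dehydrogenase, made up 27.8% and 28.4% of the UMIs of Ldha and Ldhb in pluripotent-like cells and 5.66% and 6.16% in the others. The 10 other states lay between 3.29% and 7.89%. Ldha itself did not pass the test between these classes, while Ldhb stood at 2.84 and 3.96 UMIs per 10000 in pluripotent-like cells and at 0.430 and 0.558 in the others.

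**Figure D3:**
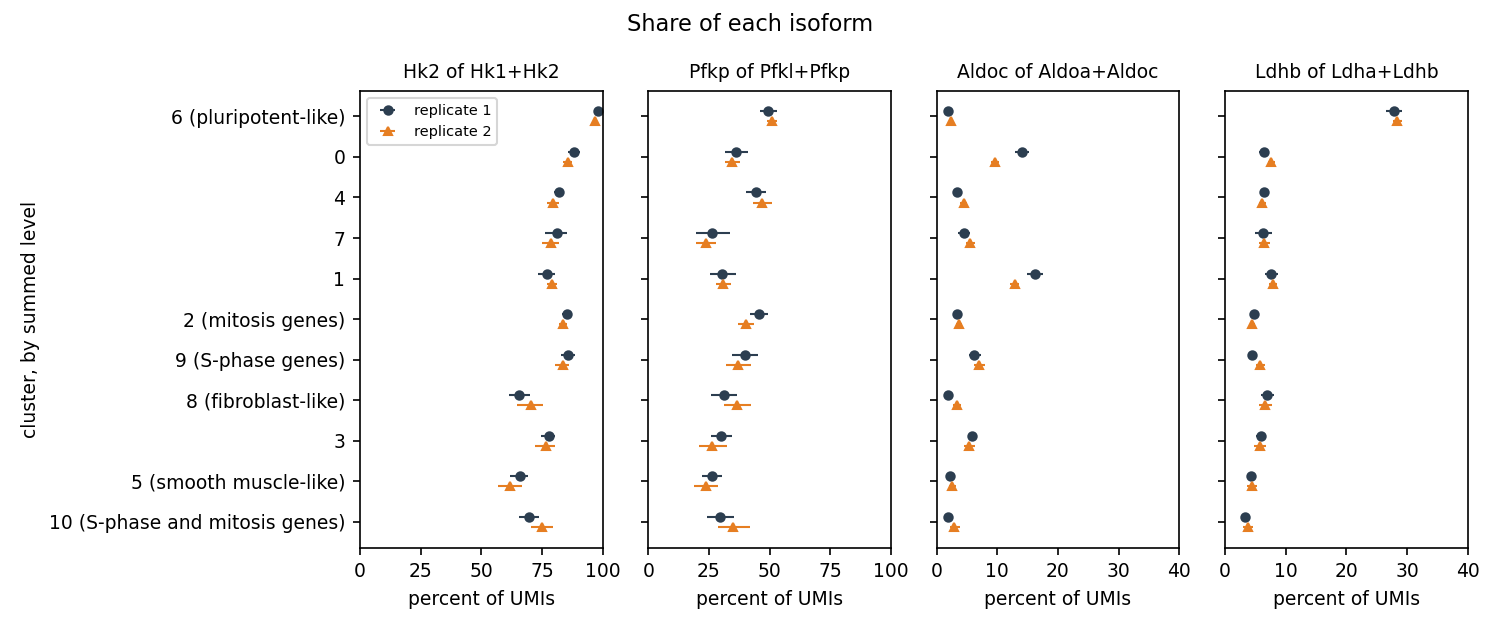
Share of Hk2, Pfkp, Aldoc and Ldhb in the UMIs of each pair of paralogs (percent; the right pair of panels runs from 0 to 40) in 11 clusters, ordered by the summed level of the 10 enzymes; circles are replicate 1 and triangles replicate 2, and bars are exact 95% binomial intervals. Pluripotent-like cells have the highest Hk2, Pfkp and Ldhb shares, and clusters 0 and 1 the highest Aldoc shares.

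Over the 11 states, the summed level of the 10 genes was highest in pluripotent-like cells, at 51.2 and 59.2 UMIs per 10000 (55.2 ± 5.6, SD, n = 2). The next states, clusters 0 (42.0 ± 1.9), 4 (41.5 ± 3.5) and 7 (39.8 ± 9.9), did not differ among themselves beyond their SDs. The gap of 13.2 from pluripotent-like cells to cluster 0 was above both SDs. From cluster 7 down to cluster 10, the lowest at 26.2 and 30.2, no neighbours differed by more than their SDs. Smooth muscle-like cells were at 27.0 and 34.0. In each library pluripotent-like cells stood above the highest other of the 11 states, by 1.26-fold in both. States with fewer than 30 cells in a library were left out of this order. Of these, macrophage-like cells (4 and 9 cells) summed to 65.5 and 53.6, above pluripotent-like cells in replicate 1. Epithelial-like cells (66 and 4 cells) summed to 46.0 and 46.0.

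Over the same 11 states, 6 of the 10 genes were highest in pluripotent-like cells with a gap above the SDs: Hk2, Pfkl, Pfkp, Aldoa, Pgam1 and Pkm. The share of all genes that met this rule was not computed, so the count sets none of the 6 apart. Outside the 11, the few macrophage-like cells had Aldoa at 23.6 and 13.4 per 10000 and Pgam1 at 6.91 and 8.83. For Hk2 the next of the 11 states was cluster 0 at 1.71 and 1.57. Outside them, Hk2 was at 2.01 and 3.25 in epithelial-like and at 3.40 and 2.14 in macrophage-like cells. The mitosis-led cluster 2, with 16 of 16 mitosis genes raised, had Hk2 at 1.31 and 1.30, and the S-phase cluster 9 at 1.19 and 1.15. Pluripotent-like cells had 4.83 and 4.57, and the part of the cell cycle in this was not tested. Aldoa followed another order: cluster 7, led by Mmp11, Isg15 and Dcn, was next at 8.72 and 12.4, and the 3 cell-cycle clusters were lowest, from 4.53 to 6.01 in single libraries.

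The orders that follow also cover the 11 states only. Hk1 was lowest in pluripotent-like cells and highest in smooth muscle-like cells (0.429 and 0.429 per 10000) and fibroblast-like cells (0.426 and 0.366), which did not differ beyond their SDs. Aldoc was highest in clusters 1 (1.41 and 1.35) and 0 (1.35 and 0.991), which did not differ beyond their SDs, and lowest in cluster 10 (0.0936 and 0.165). By the mean of the libraries Tpi1 ran from 5.18 and 5.76 in cluster 0 to 3.24 and 4.30 in smooth muscle-like cells. In replicate 2 alone, cluster 7 was highest for Tpi1, at 6.33, and pluripotent-like cells lowest, at 4.04. No neighbours in the order of Tpi1 differed beyond their SDs. The same was true of Ldha, by the mean highest in the S-phase cluster 9 (9.11 and 8.23). Ldha was lowest in cluster 3 (4.84 and 6.27), led by Rarres2 and Sostdc1. In replicate 2 alone, pluripotent-like cells were highest for Ldha, at 9.77.

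**Figure D4:**
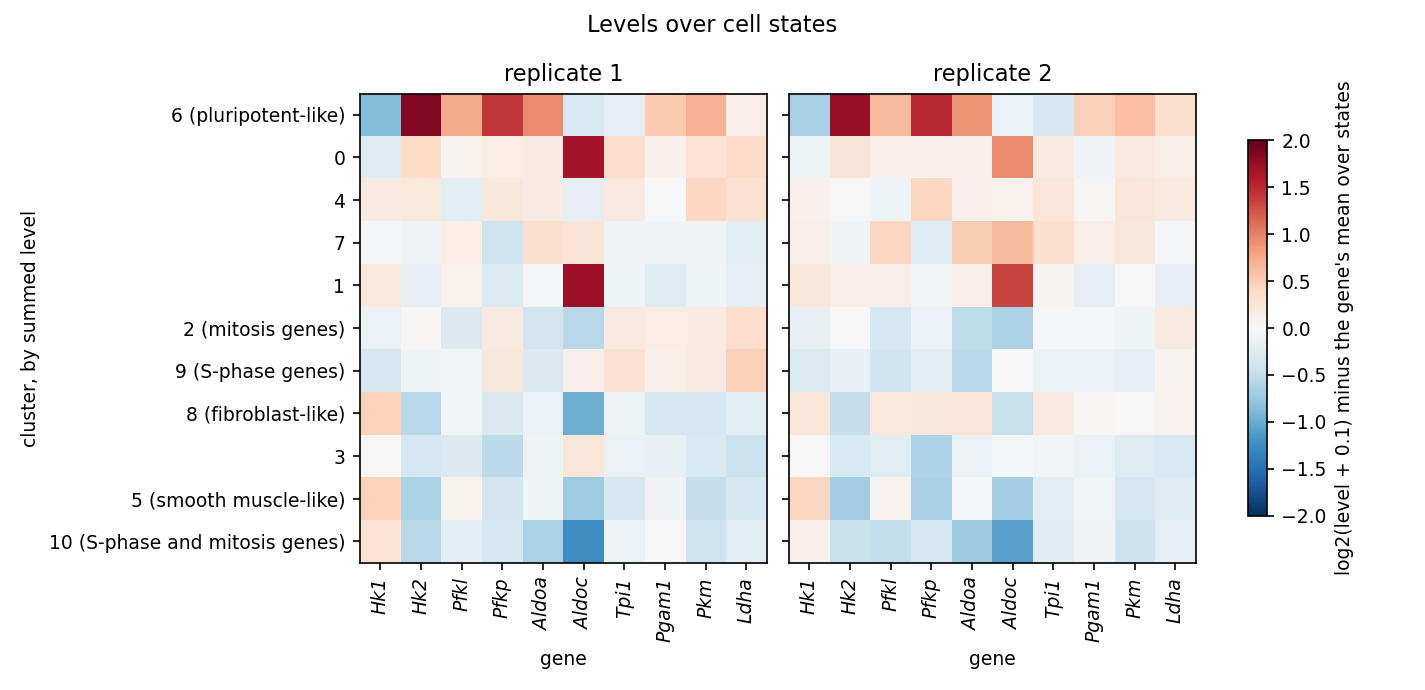
Log2(level + 0.1) of each enzyme gene in 11 clusters minus the gene's mean over the clusters, for each library, with red above and blue below the mean; clusters are ordered by the summed level. In both libraries the pluripotent-like row is red for Hk2, Pfkl, Pfkp, Aldoa, Pgam1 and Pkm and blue for Hk1, and Aldoc is red in clusters 0 and 1.

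Between genes, levels over the 11 states rose and fell together in some pairs only. Pearson's r of log2(level + 0.1) was 0.94 and 0.88 (replicates 1 and 2) for Hk2 with Pfkp and 0.83 and 0.98 for Pfkl with Aldoa, and it was -0.87 and -0.83 for Hk1 with Hk2. Over all 45 pairs the median was 0.29 and 0.41. By the same measure the 5 other genes most like the summed level were Gapdh (0.96 and 0.92) and Eno1 (0.94 and 0.90), which encode the next glycolytic enzymes, Ccdc58 (0.95 and 0.92), Ldhb (0.88 and 0.88) and Sde2 (0.90 and 0.88), out of 7121 genes. The states of a library share its preparation and differ in depth, and these values are descriptions.

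The rest of the pathway was read from lists of genes, by the same limma fit against all other cells. In that fit 31.5% of all genes were higher and 46.2% lower, with a median log2 fold of -0.16. These shares are the background of every count from a list below. Among the listed genes called lower, Bpgm, Eno3, Pfkfb3, P4ha2, Adm and Epas1 had a mean under 0.1 UMIs per 10000 in pluripotent-like cells. They passed the filter only through the other cells, so these 6 calls were favoured by the filter and nothing is read from them. Of 7 other glycolytic enzymes tested, 4 were higher (Ldhb, Eno1, Gapdh and Pgk1) and 2 lower (Eno3 and Bpgm), with a median log2 fold of 0.45. Gapdh had 31.3 and 33.8 UMIs per 10000 against 18.5 and 23.3, and Eno1, the common enolase, 7.28 ± 1.68 against 3.75 ± 0.92 (SD, n = 2), for log2 folds of 0.64 and 0.94. Eno3, the muscle enolase, had 0.0439 and 0.0762 against 0.151 and 0.182. Pgk1 was near the filter, at 0.199 ± 0.006 against 0.119 ± 0.027 (SD, n = 2). Gpi1, which links the hexokinase and phosphofructokinase steps, did not pass, with 3.34 and 3.71 against 3.27 and 4.55.

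Of 7 transport genes, 4 were higher and 2 lower. Slc2a3, the high-affinity glucose transporter GLUT3, had a level of 2.50 and 2.47 UMIs per 10000 in pluripotent-like cells and 0.228 and 0.236 in the others (log2 fold 2.96, limma adjusted p = 1.9e-08), and Slc2a1, the common glucose transporter GLUT1, had 1.35 and 1.90 against 0.416 and 0.476 (log2 fold 1.64, limma adjusted p = 8.4e-07). Slc16a3, the lactate exporter MCT4, had 1.03 and 1.23 against 0.452 and 0.557. Both genes of the mitochondrial pyruvate carrier were lower: Mpc1 had 0.740 against 1.23 (means of 2 libraries; log2 fold -0.67), and Mpc2 had 0.380 and 0.343 against 0.882 and 0.898 (log2 fold -1.10, limma adjusted p = 4.8e-06). None of these 5 genes overlapped between the classes, again without the share of all genes to set this against.

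Of 3 tested regulators of the flux, Pdk1, a kinase that shuts off pyruvate dehydrogenase, was higher (0.824 ± 0.127 against 0.443 ± 0.081, SD, n = 2). Pdk3 did not pass (log2 fold 0.01). Pfkfb3 (0.0197 and 0.0446 against 0.0889 and 0.137) was called lower, but the filter favoured this call and nothing is read from it. Of 19 tested genes of pyruvate dehydrogenase and the TCA cycle, 5 were higher and 4 lower, with a median log2 fold of 0.06. The largest rises were in Pdhb, a pyruvate dehydrogenase subunit, at 1.24, Idh3g, an isocitrate dehydrogenase subunit, at 1.06, and Cs, citrate synthase, at 0.31. The lower ones were led by Dlst at -0.61, Dld at -0.50 and Idh3b at -0.24. In the pentose phosphate pathway, which branches off after hexokinase, 3 of 6 genes were higher (log2 folds of 1.22 for Taldo1, 0.88 for Rpe and 0.47 for Tkt) and 2 lower (Pgls, at 1.61 and 1.42 UMIs per 10000 against 3.31 and 2.96, and G6pdx, at a log2 fold of -0.50). Pgd, of the oxidative branch like the latter pair, did not pass, with 0.568 and 0.618 against 0.584 and 0.604. Of 2 gluconeogenesis genes, Pck2 was higher at 0.39 and G6pc3 lower at -0.77.

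Of 18 tested genes of the hypoxia response outside glycolysis, 5 were higher (31.5% of all genes) and 11 lower (46.2%). The median log2 fold was -0.36, against -0.16 for all genes. The lower ones include P4ha2, Adm and Epas1, whose calls the filter favoured. Egln3, a prolyl hydroxylase that marks HIF for decay, had 0.412 and 0.371 UMIs per 10000 against 1.68 and 2.38 (log2 fold -2.10). Hif1a itself had 0.303 and 0.331 against 0.938 and 0.941 (log2 fold -1.32). Adm, adrenomedullin, was at -1.76, from which nothing is read because of the filter. The largest rises were in Ddit4, an inhibitor of mTORC1 signalling, with 1.13 and 1.80 against 0.499 and 0.642, and, as log2 folds, Kdm3a, a histone demethylase, at 0.65 and Ankrd37 at 0.41. Against fibroblast-like cells, 2 of 18 were higher (32.1% of all genes) and 14 lower (45.4%). P4ha2, Adm and Epas1 were again among the lower, with means under 0.1 in pluripotent-like cells.

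The libraries were also compared with each other, without a test, by the log2 ratio of their mean levels. Over all cells, 4 of the 10 genes were at least 25% higher in replicate 2 (with 0.1 added to each level), a limit chosen after seeing the data, against 1.68% of all genes, and 0 were that much lower. The log2 ratio had a median of 0.31 over the 10 genes and of -0.06 over all genes. The summed level was 33.4 in replicate 1 and 41.6 in replicate 2. The labels do not say which mouse system or culture gave which library, so mouse system, culture and preparation cannot be told apart.

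The gap varied with the state, although this variation was not tested. In fibroblast-like cells 8 of the 10 genes were at least 25% higher in replicate 2 (5.03% of all genes), and the summed level was 1.51-fold higher. In cluster 7 it was again 8 (6.06% of all genes) and 1.43-fold. It was 4 in clusters 1 and 4 (4.02% and 2.83% of all genes), 2 in cluster 3 (2.45%) and 0 in cluster 0 (4.84%), where Aldoc was lower instead. In smooth muscle-like cells it was 5 (3.06%), in pluripotent-like cells 2, Aldoc and Ldha (5.27%), in the mitosis-led cluster 2 and the S-phase cluster 9 it was 0 (1.98% and 3.69%), and in cluster 10 it was 1 (3.7%). The sums of clusters 2 and 9 were 34.9 and 36.4 and 36.4 and 34.5 in replicates 1 and 2. Of the 18 hypoxia-response genes, 10 were that much higher in replicate 2 in fibroblast-like cells, 9 in clusters 1 and 7 and 0 in cluster 2.

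Hk1 and Hk2 stayed under this limit in fibroblast-like cells: Hk1 was 0.426 and 0.366 and Hk2 0.836 and 0.896 in replicates 1 and 2, whereas Aldoa was 6.42 and 10.2 and Ldha 5.55 and 8.23. In pluripotent-like cells Hk2 was likewise close, at 4.83 and 4.57, while Ldha was 7.14 and 9.77.

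**Figure D5:**
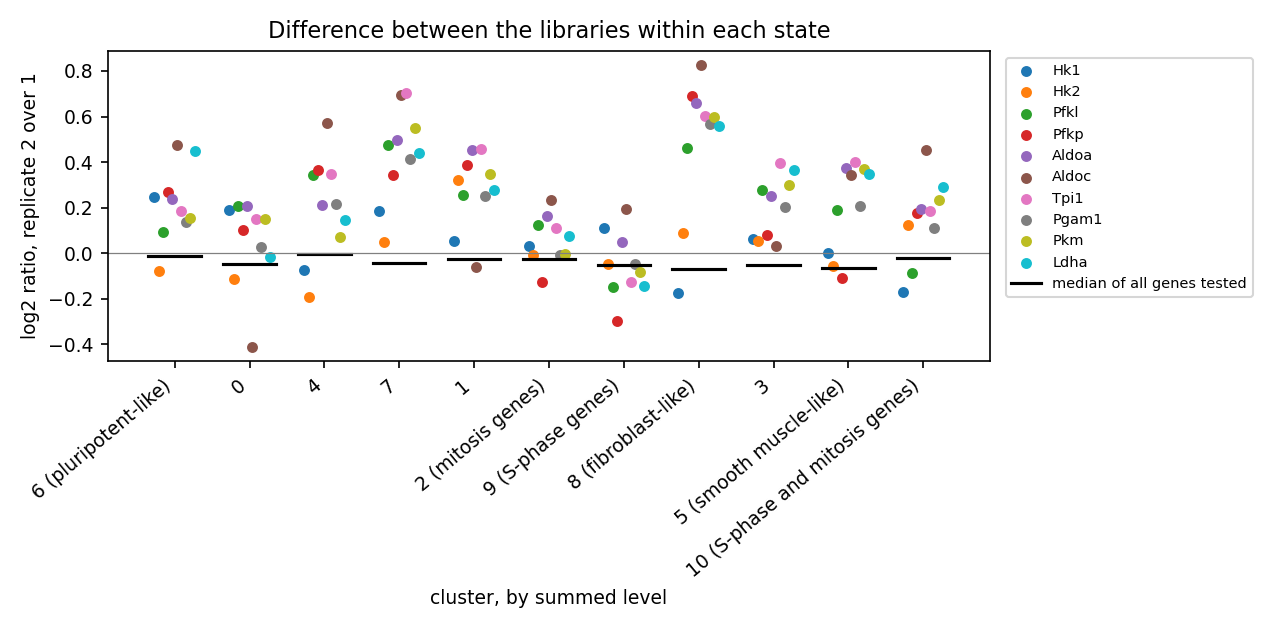
Log2 ratio of the level in replicate 2 over replicate 1 (pseudocount 0.1) for each enzyme gene within 11 clusters, with a black bar for the median of all genes tested. In fibroblast-like cells and cluster 7, 8 of the 10 genes lie at least 25% up, and in clusters 2 and 9 none does.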

How the data were processed

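Unsorted cells of day 16 were profiled as 2 droplet 3′ libraries (Chromium V2, 1 group). Per the study's methods the authors counted reads with CellRanger (version 2.1.1, mm10), imported them into Seurat, kept cells with 1500 to 6000 genes and under 9% mitochondrial RNA, and normalised and log-transformed them. Doublet removal and the strand setting of the counting are not stated there. Values in the deposited table are natural log units, ln(1 + UMIs per 10000), and after exponentiation all entries (100%) came out as whole UMIs within 0.01, and cells had 4753 to 60990 UMIs. One UMI stands for 1 molecule's 3′ end, so levels were not divided by length.

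Columns were mapped to libraries by barcode suffix, and replicate numbers follow the order of the records. Cells were clustered on 2000 variable genes (scanpy 1.11.5, 30 components, 15 neighbours, leidenalg 0.10.2, resolution 1), leaving out 704 genes: the 102 pathway genes, 599 genes of the sex chromosomes, the factors of the cassette and some pluripotency genes kept for checking, sets that overlap. A cluster took the class with most of its markers at least 2-fold up (at least 3 and 50%), a rule set after clusters had been seen. No doublet caller was run. The profile of a class was the mean over its cells of UMIs per 10000. Genes with a mean of at least 0.1 were tested by limma (version 3.58.1, R 4.3.3) with terms for class and library, the libraries being the block, since each library holds both classes. The fit draws the spread of each gene towards that of all genes. A printed SE is therefore largely a shared value and not that gene's own spread between 2 libraries. The fit was tried on simulated data in which fewer genes changed, and by larger folds than most of the 10 genes showed. That trial does not bear on calls with small folds. Members, lists and tests were chosen with earlier results of these data known. All 10 members were named, and from each list up to 3 genes per direction with the largest fold; others were named after their values were seen. Alternatives covered the pseudocount, filter, scaling, clustering, class rule, depth and libraries. Transcripts were aligned with BLAST 2.17.0.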

Additional observations from a re-analysis of the deposited data

How the results depend on the processing

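The number of genes called against other cells (9) stayed between 8 and 10 in all 14 alternatives. Without the library term (no replicate block) it was 8, Tpi1 no longer passing, and against fibroblast-like cells it was 7, Aldoc and Ldha no longer passing. Against fibroblast-like cells (9), the fit with no filter on low values gave 2, Hk2 and Pfkp, and the other 11 alternatives gave 8 to 10. With 1 library left no test remained, and no gene changed sign.

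Classes from the markers of each single cell turned Aldoc against other cells to 0.34 and Tpi1 against fibroblast-like cells to 0.079, and 4000 variable genes turned Aldoc against fibroblast-like cells to -0.18. The cause was not tested. The Hk2 share difference was 15.2 with single-cell classes. The Pfkp difference was 17.2 by means over cells and 13.2 at 15000 to 30000 UMIs. The Aldoc difference was -4.97, -1.38 and -3.40 under these settings (means over cells, single-cell classes, and 15000 to 30000 UMIs). The ratio of the summed level in pluripotent-like cells to the highest other state of at least 30 cells in each library was 1.26. It was 1.31 at resolution 0.5, 1.19 at resolution 2, 1.22 with pathway genes in the clustering and 1.24 without Pkm. Against other cells Tpi1 lost its call in 6 alternatives and Ldha gained one in 4. Against fibroblast-like cells Ldha lost its call in 6, Aldoc in 4 (the reversal among them), and Tpi1 gained one with a pseudocount of 1. Spread rests on 2 libraries, and genes with a mean over all cells below 0.1 per 10000 were not tested.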
